A study of Homo sapiens with 8 samples.

Results

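Aminoacyl-tRNA synthetases are the enzymes that join each amino acid to its transfer RNA (tRNA), and 36 of their genes, taken by gene symbol, are described here across 8 RNA sequencing libraries of A549 cells. A549 is an established human lung adenocarcinoma line. The 36 genes are 20 that serve the cytosol and 16 that serve mitochondria, whose symbols end in 2, among 58302 genes in the deposited files and 17676 that passed the count filter. All 36 passed it.

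The 4 groups held 2 libraries each. AXL shRNA cells carried a short hairpin RNA against AXL, a receptor tyrosine kinase, and control shRNA cells carried a control hairpin. TP-0903 cells received 40 nM TP-0903, a small-molecule AXL inhibitor, and control cells were the cells set against them. Each library name also holds a number after the letter P (P15 and P3 for both hairpins, P17 and P4 for TP-0903 and control) that the labels do not explain. All cells were of the same line, and the hairpin sequences, the treatment of the control cells and the time of exposure are likewise not stated in the labels. The labels call the libraries biological replicates, with no statement on separate cultures, so p-values measure the spread between these libraries.

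Cytosolic synthetases charge the tRNAs that ribosomes use to make most cellular protein, and 8 of them sit together in the multisynthetase complex on a scaffold of accessory proteins. Mitochondria use a second, nuclear-encoded set for the tRNAs encoded by their own genome. When amino acids run short, uncharged tRNA activates the kinase GCN2 (EIF2AK4), which favours translation of the transcription factor ATF4, and many cytosolic synthetase genes are known ATF4 targets. Glycyl-tRNA synthetase (GARS) and lysyl-tRNA synthetase (KARS) serve both compartments from 1 gene each and were counted with the cytosolic set.

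Library totals ran from 30067011 to 44217023 expected counts. AXL itself stood at 55.4 (P15) and 62.9 (P3) CPM (expected counts scaled for library size and composition) with AXL shRNA, against 85.0 (P15) and 139 (P3) with control shRNA, a log2 fold change of -0.92 (SE 0.42) that did not pass the threshold in edgeR's quasi-likelihood test (adjusted p = 0.12) and did with the P number as a replicate block (adjusted p = 8.6e-04). Of 11 markers of A549, 8 were above 100 TPM in every library, while KRT19 ran from 39.8 to 736 TPM, CDH1 from 13.9 to 64.7 TPM and EPCAM from 3.0 to 43.2 TPM. KRT8, KRT18, KRT19, EPCAM and AKR1B10 rose with AXL shRNA, by 1.32 (AKR1B10) to 3.45 (KRT19) on the log2 scale, and KRT19 rose by 1.75 with TP-0903. Of 13 markers of blood, endothelial and fibroblast cells, PTPRC, CD3E and HBB were at or near 0, and the summed level of all 13 was 72.4 and 116 CPM in AXL shRNA libraries, against 26.9 and 20.8 CPM in control shRNA libraries. COL3A1 and COL1A1, fibroblast collagens, rose with AXL shRNA, at log2 fold changes of 4.29 and 1.30, as did LUM, CD79A and HBA1, and CD14 fell. The same sum was 15.3 and 21.8 CPM in TP-0903 libraries, against 26.7 and 27.8 CPM in control libraries. Transcripts of the mitochondrial genome took 6.79% and 7.78% of counts with AXL shRNA, against 3.94% and 5.17% with control shRNA, and 5.16% and 5.82% with TP-0903, against 3.68% and 3.58% in control cells. The part of these differences in the results below was not tested, and fewer cells of a kind and less RNA per cell cannot be told apart in bulk libraries.

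The 2 compartments differed in transcript level per length. In TPM, RSEM's transcript abundance scaled for length and depth, averaged over the 8 libraries, cytosolic synthetases had a median of 91.5 TPM, with the lowest at 27.7 TPM (FARSB, the beta subunit of phenylalanyl-tRNA synthetase) and the highest at 252 TPM (MARS, methionyl-tRNA synthetase, which also charges the initiator tRNA). Mitochondrial synthetases had a median of 18.8 TPM and ran from 3.85 TPM for PARS2 (prolyl) to 108 TPM for IARS2 (isoleucyl), the single mitochondrial gene above 100 TPM. Of 17 pairs of a cytosolic and a mitochondrial gene for the same amino acid, the cytosolic gene had the higher TPM in 17, with a median ratio of 3.82 and a range of 1.27 (IARS over IARS2) to 29.9 (MARS over MARS2). EPRS, which charges both glutamate and proline, is in 2 of these pairs, and both subunits of phenylalanyl-tRNA synthetase are paired with FARS2.

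The summed level of the cytosolic set was lower with AXL shRNA and with TP-0903. Its summed TPM was 1295 (P15) and 1371 (P3) in AXL shRNA libraries, against 2701 (P15) and 3106 (P3) in control shRNA libraries. It was 1905 (P17) and 1914 (P4) in TP-0903 libraries, against 2268 (P17) and 2665 (P4) in control libraries. In both comparisons neither treated library reached the lower of its 2 controls. The mitochondrial sum was 342 and 328 TPM with AXL shRNA, against 402 and 386 TPM with control shRNA, and 419 and 419 TPM with TP-0903, against 474 and 442 TPM in control cells. The ratio of the cytosolic to the mitochondrial sum was 3.98 ± 0.27 with AXL shRNA, against 7.39 ± 0.94 with control shRNA, and 4.56 ± 0.011 with TP-0903, against 5.41 ± 0.88 in control cells (SD, n = 2 each). With 2 libraries a group, no exact permutation test of these sums can pass 0.05, and none was made. Levels of single genes are given below as CPM scaled between libraries.

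**Figure D1:**
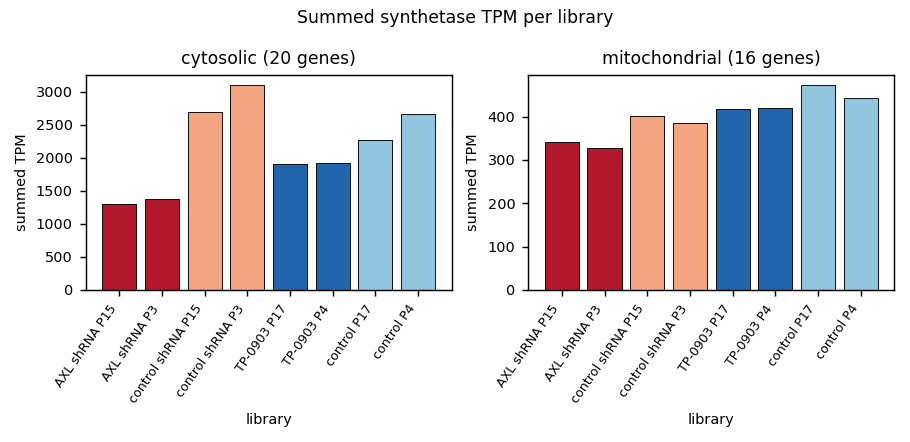
Summed TPM of the 20 cytosolic synthetases (left) and the 16 mitochondrial synthetases (right), 1 bar per library, coloured by group. The cytosolic sum is lowest in the AXL shRNA libraries (1295 and 1371) and highest in the control shRNA libraries (2701 and 3106), while the mitochondrial sums of all 8 libraries lie between 328 and 474.

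Knockdown of AXL was compared with its control hairpin gene by gene. Of the 20 cytosolic synthetases, 13 fell and 3 rose (edgeR quasi-likelihood test, Benjamini-Hochberg adjusted over all 17676 genes, threshold 0.05), where 19% of all tested genes fell and 18.5% rose. Their median log2 fold change was -0.73, against -0.01 over all tested genes. Of the 16 mitochondrial synthetases, 3 fell and 2 rose, with a median of -0.08. With the replicate block, 14 cytosolic genes fell and 4 rose, and 5 mitochondrial genes fell and 4 rose (the added calls were EARS2 and TARS2 as lower and MARS2 and YARS2 as higher), where 26.1% of all tested genes fell and 25.6% rose. With limma on log2 TPM, which moved the median of all genes to -0.15, the split was 14 lower and 2 higher in the cytosol and 5 lower and 1 higher in mitochondria.

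The separation held library by library. Both AXL shRNA libraries lay below both control shRNA libraries for 15 of 20 cytosolic genes and above them for 4, against 35.5% of all tested genes below and 34.5% above. For mitochondrial genes the counts were 7 below, 5 above and 4 that overlapped. Within each P number the cytosolic median log2 ratio of AXL shRNA to control shRNA was -0.61 at P15 and -0.88 at P3, and 16 of 20 genes were lower in both pairs. The mitochondrial median was -0.04 at P15 and -0.16 at P3.

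**Figure D2:**
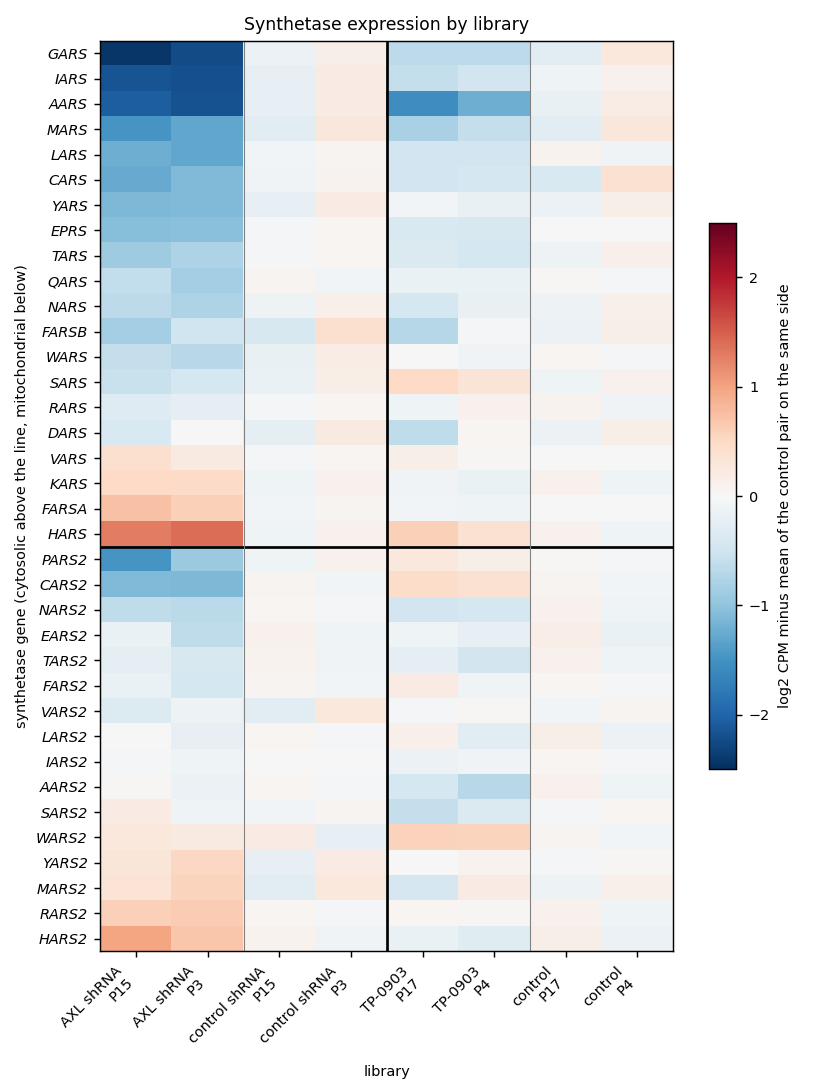
Each row is a synthetase gene (20 cytosolic above the line, 16 mitochondrial below, both ordered by the AXL shRNA effect) and each column a library. Colour is log2 CPM minus the mean of the 2 control libraries on the same side of the vertical line, so blue is lower and red higher than those controls. The first 2 columns are blue for most cytosolic genes, deepest for GARS, IARS and AARS, and red for HARS, while TP-0903 columns are paler apart from AARS.

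The largest falls were in GARS, IARS and AARS. GARS (chr7:30594681-30634033, + strand, GRCh38), the glycyl-tRNA synthetase of both compartments, had 61.2 and 69.3 CPM in AXL shRNA libraries, against 297 and 363 CPM in control shRNA libraries. It fell by 2.34 on the log2 scale (SE 0.20, adjusted p = 4.9e-04, edgeR). IARS (chr9:92210207-92293756, - strand), the isoleucyl enzyme of the complex, had 135 and 131 CPM with AXL shRNA, against 524 and 695 CPM with control shRNA. Its log2 fold change was -2.19 (SE 0.17, adjusted p = 3.9e-04, edgeR). AARS (chr16:70252295-70289543, - strand), the alanyl enzyme, had 114 and 105 CPM with AXL shRNA, against 414 and 545 CPM with control shRNA, and fell by 2.13 (SE 0.20, adjusted p = 6.1e-04, edgeR). For all 3 genes the AXL shRNA libraries were close to each other and far below both control shRNA libraries.

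EPRS and LARS, both in the multisynthetase complex, fell by more than 1 on the log2 scale. EPRS, which holds the glutamyl and prolyl activities in 1 protein, had 149.9 and 152 CPM with AXL shRNA, against 302 and 327 CPM with control shRNA (log2 fold change -1.06, SE 0.10, adjusted p = 6.1e-04, edgeR). LARS, the leucyl enzyme, which also acts as a leucine sensor upstream of mTORC1, had 103 and 97.6 CPM with AXL shRNA, against 228 and 254 CPM with control shRNA (log2 fold change -1.26, SE 0.11, adjusted p = 5.5e-04, edgeR). WARS, the tryptophanyl enzyme, is known as the interferon-induced member of the family. It had 93.5 and 87.7 CPM with AXL shRNA, against 125 and 159.7 CPM with control shRNA (log2 fold change -0.65, SE 0.14, adjusted p = 0.0097, edgeR). Without the AXL shRNA P3 library the adjusted p of WARS was 0.057.

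The other cytosolic genes that fell, with their log2 fold changes, were MARS (methionyl) at -1.41, CARS (cysteinyl) at -1.18, YARS (tyrosyl) at -1.13, TARS (threonyl) at -0.83, QARS (glutaminyl) at -0.73, NARS (asparaginyl) at -0.72 and SARS (seryl) at -0.50. SARS is the least firm of these: its adjusted p was 0.032 in the fit of all libraries and 0.062 in a fit of the 4 hairpin libraries alone, and 0.13, 0.080 and 0.15 without AXL shRNA P15, AXL shRNA P3 and control shRNA P3. NARS had an adjusted p of 0.055 without AXL shRNA P3 (edgeR for all of these). The 4 cytosolic genes that did not pass were FARSB at -0.72 (SE 0.31), RARS (arginyl) at -0.28 (SE 0.12), DARS (aspartyl) at -0.19 (SE 0.26) and VARS (valyl) at 0.32 (SE 0.11). With the replicate block FARSB passed as lower (adjusted p = 0.0035, edgeR) and VARS as higher (adjusted p = 0.034, edgeR).

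The cytosolic synthetases HARS, FARSA and KARS rose, and VARS, at 0.32, was the other gene of the 20 above its controls. HARS, the histidyl enzyme, had 137 and 148 CPM with AXL shRNA, against 52.3 and 61.3 CPM with control shRNA, and rose by 1.33 on the log2 scale (SE 0.14, adjusted p = 7.9e-04, edgeR). FARSA, the alpha subunit of phenylalanyl-tRNA synthetase, had 79.7 and 72.6 CPM with AXL shRNA, against 46.0 and 50.3 CPM with control shRNA, and rose by 0.66 (SE 0.10, adjusted p = 0.0030, edgeR), while its partner subunit FARSB was at -0.72. KARS, the lysyl enzyme of both compartments and the complex, had 181 and 179 CPM with AXL shRNA, against 119 and 139 CPM with control shRNA (log2 fold change 0.48, SE 0.12, adjusted p = 0.019, edgeR). For each of the 3 both AXL shRNA libraries were above both control shRNA libraries. The rise of KARS is the least stable call: its adjusted p was 0.16 with limma on log2 TPM and 0.075, 0.072 and 0.10 without AXL shRNA P15, AXL shRNA P3 and control shRNA P15.

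Genes that fell were found both in the complex and outside it, and every count below is read against the 19% of all tested genes that fell and the 18.5% that rose. Of the 8 synthetases of the multisynthetase complex, 5 fell and 1 rose, with a median log2 fold change of -0.90, and of the 12 free ones 8 fell and 2 rose, with a median of -0.72. By catalytic fold, 7 of 9 class I enzymes fell and 0 rose, with a median of -1.13. Of the 10 class II enzymes 5 fell and 3 rose, with a median of -0.61, and the 3 that rose, HARS, FARSA and KARS, are class II. EPRS holds both folds and is in neither count. These counts are without the block. With the replicate block VARS, a class I enzyme, also passed as higher and FARSB, of class II, as lower, both outside the complex. That fit called 26.1% of all tested genes as lower and 25.6% as higher.

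Among mitochondrial synthetases, CARS2, PARS2 and NARS2 fell and HARS2 and RARS2 rose with AXL shRNA. CARS2 (cysteinyl) had 14.7 and 14.5 CPM with AXL shRNA, against 32.8 and 30.2 CPM with control shRNA (log2 fold change -1.11, SE 0.12, adjusted p = 8.1e-04, edgeR). PARS2, the lowest of the 36 in TPM, fell by 1.17 (SE 0.24). NARS2 (asparaginyl) had 17.2 and 16.7 CPM with AXL shRNA, against 27.6 and 25.9 CPM with control shRNA (log2 fold change -0.66, SE 0.12, adjusted p = 0.0058, edgeR). CARS and CARS2, and NARS and NARS2, thus fell in both compartments, as did EPRS, which holds the cytosolic prolyl activity, and PARS2.

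HARS2, the mitochondrial histidyl enzyme, had 74.6 and 60.7 CPM with AXL shRNA, against 40.0 and 35.6 CPM with control shRNA (log2 fold change 0.84, SE 0.15, adjusted p = 0.0054, edgeR). RARS2 (arginyl) had 29 and 29.8 CPM with AXL shRNA, against 19.7 and 18.5 CPM with control shRNA (log2 fold change 0.62, SE 0.13, adjusted p = 0.0082, edgeR). Both missed the threshold with limma on log2 TPM, at adjusted p = 0.055 for HARS2 and 0.070 for RARS2. AARS2 (alanyl) had 10.8 and 9.67 CPM with AXL shRNA, against 11 and 10.3 CPM with control shRNA, a log2 fold change of -0.06 (SE 0.17), beside -2.13 for AARS. Across the 17 amino acid pairs the cytosolic gene had the lower log2 fold change in 13.

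**Figure D3:**
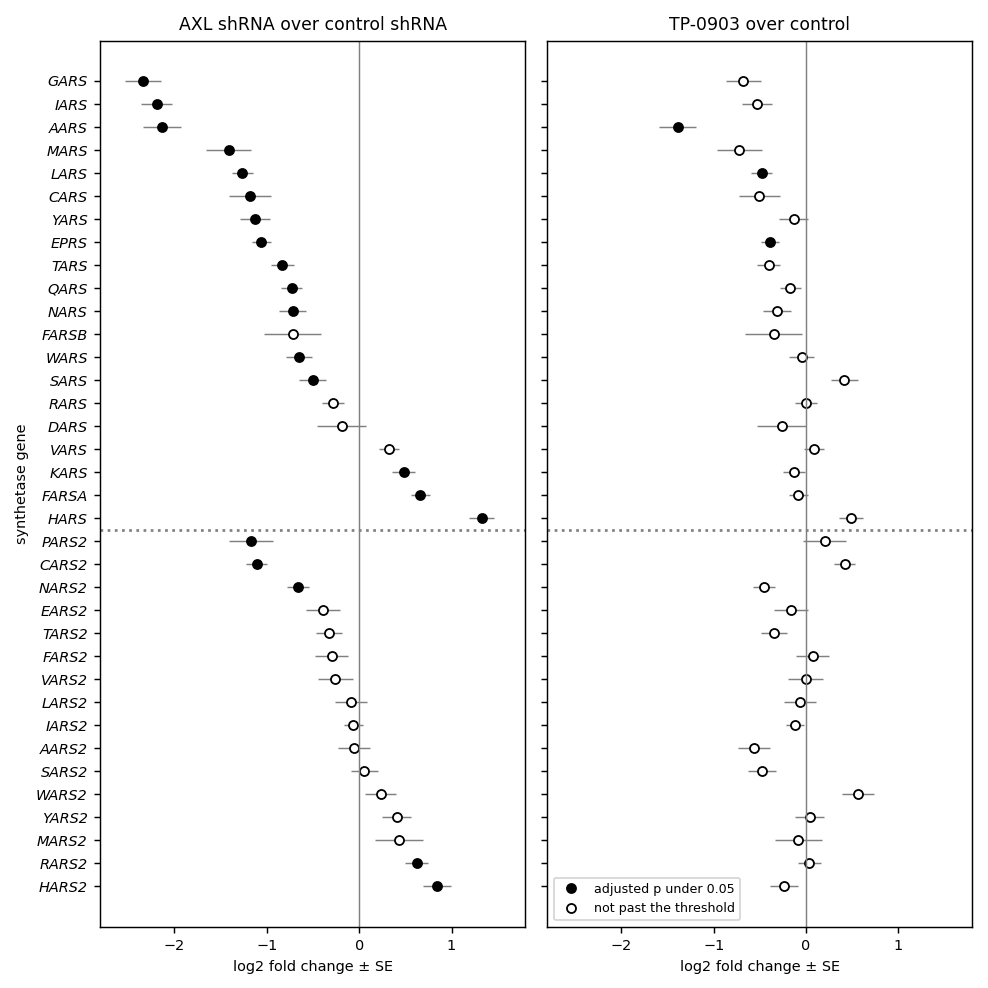
Log2 fold change with its SE for each of the 36 synthetases, AXL shRNA over control shRNA on the left and TP-0903 over control on the right, in the same gene order, with the cytosolic set above the dotted line. Filled points passed an adjusted p of 0.05. On the left most cytosolic points lie below 0, from -2.34 for GARS to 1.33 for HARS, and on the right 3 points are filled, AARS, LARS and EPRS.

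The promoter windows of the members, whichever way each gene moved, were read for the core of the amino acid response element, TGATGNAA, to which ATF4 is known to bind with a C/EBP partner. RefSeq windows (GRCh38.p14) of 250 bases before to 50 bases after the transcription start were at hand for 30 of the 36 genes, with more than 1 window for some. DARS, LARS, VARS, YARS, AARS2 and VARS2 had no entry. The motif, on either strand, was in 7 of 16 cytosolic genes (43.8%) and 1 of 14 mitochondrial genes (7.14%, YARS2), against 4.46% of 27305 genes with a window. The 7 are AARS, CARS, GARS, IARS, MARS, NARS and TARS. Shown are the 30 bases around each match, in the direction of the gene, because these 7 genes include the 4 with the largest falls. Capitals mark the motif, which is written as its reverse complement where it lies on the opposite strand.
AARS: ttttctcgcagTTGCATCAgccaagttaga
CARS: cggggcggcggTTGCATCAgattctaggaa
GARS: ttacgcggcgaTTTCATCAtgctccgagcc
IARS: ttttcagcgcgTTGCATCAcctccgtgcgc
MARS: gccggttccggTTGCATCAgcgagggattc
NARS: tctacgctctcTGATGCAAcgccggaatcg
TARS: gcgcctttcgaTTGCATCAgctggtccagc
They lie at chr16:70289675-70289704 (AARS), chr11:3057407-3057436 (CARS), chr7:30594834-30594863 (GARS), chr9:92293692-92293721 (IARS), chr12:57488053-57488082 (MARS), chr18:57621804-57621833 (NARS) and chr5:33440956-33440985 (TARS). Counted from the start site, the leftmost base of the motif is at -187 in AARS, -33 in GARS, -13 in IARS, -4 in MARS, -2 in CARS, 3 in TARS and 15 in NARS. For GARS this is the start of its second window, and its first window holds no match. A match describes the letters of these windows and is not evidence of binding.

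Of the 7 cytosolic genes with the motif, 7 fell with AXL shRNA, where 19% of all tested genes fell and 18.5% rose, with a median log2 fold change of -1.41 and a range of -2.34 (GARS) to -0.72 (NARS). Of the 9 cytosolic genes whose windows lacked it, 4 fell and 3 rose, with a median of -0.50 and a range of -1.06 (EPRS) to 1.33 (HARS). YARS2, the mitochondrial gene with the motif, was at 0.41 (SE 0.16, adjusted p = 0.084, edgeR) and passed as higher with the replicate block (adjusted p = 0.012, edgeR). YARS2 shares 63.9% of its span with DNM1L on the opposite strand, so its reads cannot be told apart from those of DNM1L there. With TP-0903 the cytosolic medians were -0.53 with the motif and -0.09 without it, and 1 gene of each fell, where 6.35% of all tested genes fell and 4.9% rose. Of the 7 with the motif, 5 fell and 0 rose with TP-0903 once the replicate block was in the fit, and of the 9 without it 1 fell and 2 rose, where 13.4% of all tested genes fell and 12.9% rose. The motif in AARS stands far upstream of the start, in this stretch of 150 bases (chr16:70289607-70289756, - strand), shown because AARS was the gene that fell most with TP-0903.
AARS upstream: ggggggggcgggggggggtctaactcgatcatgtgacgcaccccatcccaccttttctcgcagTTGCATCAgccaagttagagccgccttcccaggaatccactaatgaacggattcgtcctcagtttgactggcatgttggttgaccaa

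**Figure D4:**
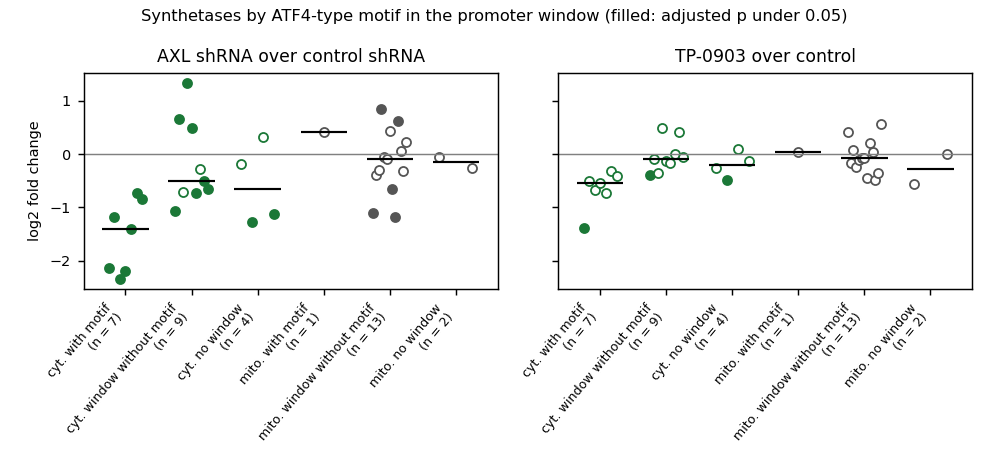
Log2 fold change of each synthetase (points, filled where adjusted p was under 0.05) by compartment and by whether the promoter window holds TGATGNAA, for AXL shRNA over control shRNA (left) and TP-0903 over control (right); lines are medians. The 7 cytosolic genes with the motif all lie below 0 on the left (median -1.41), and the 9 without it spread from -1.06 to 1.33.

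WARS was read for the interferon-type repeat GAAANNGAAA, on both strands. It holds a match 55 bases upstream of the start of its second window (chr14:100375383-100375412, - strand), as do 4.38% of all genes with a window. Capitals mark the repeat.
WARS: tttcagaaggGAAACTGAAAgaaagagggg
EARS2 was the other synthetase with this repeat. EARS2, the mitochondrial glutamyl enzyme, was at -0.39 (SE 0.19) with AXL shRNA and did not pass there, and passed as lower with the replicate block (adjusted p = 0.016, edgeR).

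HARS and HARS2 are a head-to-head pair on chromosome 5 (HARS at chr5:140673904-140691862, - strand, and HARS2 at chr5:140691426-140699318, + strand). Their RefSeq starts are 85 bases apart, and the 84 bases between them, shown because both genes share them as upstream sequence, hold neither motif. In the direction of HARS2 they read (chr5:140691371-140691454):
HARS and HARS2: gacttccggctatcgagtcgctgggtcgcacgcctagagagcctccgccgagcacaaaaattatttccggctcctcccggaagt
Both rose with AXL shRNA. With TP-0903 neither passed in the main fit, and the difference between them was not tested. HARS passed in 4 of 17 alternatives: the replicate block, the P number in 2 levels, no filter on low counts and DESeq2. The last 2 hold no term for the P number. HARS2 passed in 0 of 17. HARS had 123 and 107 CPM in TP-0903 libraries, against 88.3 and 76.4 CPM in control libraries (log2 fold change 0.49, SE 0.13, adjusted p = 0.060, edgeR; 0.0072 with the replicate block). HARS2 had 48.1 and 44.2 CPM with TP-0903, against 60.0 and 48.9 CPM in control cells (log2 fold change -0.24, SE 0.15, adjusted p = 0.35, edgeR; 0.13 with the replicate block). In HARS both TP-0903 libraries lay above both control libraries, as for 28.9% of all tested genes. In HARS2 both lay below, as for 30.9%. The annotated genes overlap by 437 bases on opposite strands, and the library kit does not mark strand, so reads from that stretch cannot be assigned to either gene.

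TP-0903 was compared with control cells in the same fit. Of the 20 cytosolic synthetases 3 fell, AARS, LARS and EPRS, and 0 rose, where 6.35% of all tested genes fell and 4.9% rose. The cytosolic median log2 fold change was -0.29, against -0.02 over all tested genes, and both TP-0903 libraries were below both control libraries for 11 genes and above them for 3, against 30.9% and 28.9% of all tested genes. With the replicate block, 7 cytosolic genes fell and 2 rose, where 13.4% of all tested genes fell and 12.9% rose. Those added were GARS, IARS, MARS (adjusted p = 0.0070) and TARS (0.034) as lower and HARS and SARS (0.037) as higher, all in edgeR. Of the mitochondrial synthetases 0 passed in edgeR (2 above and 4 below their controls with unadjusted p below 0.05), 3 passed in DESeq2, 1 in limma-voom, and 6 with the replicate block, 2 higher and 4 lower.

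AARS changed most. It had 131 and 164 CPM in TP-0903 libraries, against 336 and 438 CPM in control libraries, and fell by 1.39 on the log2 scale (SE 0.20, adjusted p = 0.0062, edgeR). LARS had 148 and 147 CPM with TP-0903, against 219 and 194 CPM in control cells (log2 fold change -0.48, SE 0.11, adjusted p = 0.036, edgeR). EPRS had 217 and 214 CPM with TP-0903, against 279 and 286 CPM in control cells (log2 fold change -0.39, SE 0.10, adjusted p = 0.048, edgeR). The TP-0903 libraries of all 3 genes lay below both control libraries. None of the 3 calls held in every fit with a library left out: without TP-0903 P17 the adjusted p was 0.060 for AARS, 0.20 for LARS and 0.23 for EPRS, so that 0 of 20 passed. Without AXL shRNA P15, AXL shRNA P3, TP-0903 P4 or control P4, 1 of 20 passed, which was AARS.

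GARS and IARS moved less with TP-0903 than with the hairpin. GARS had 151 and 150.2 CPM with TP-0903, against 198 and 285 CPM in control cells (log2 fold change -0.68, SE 0.19, adjusted p = 0.062, edgeR; 0.0089 with the replicate block). IARS had 297 and 323 CPM with TP-0903, against 414 and 485 CPM in control cells (log2 fold change -0.53, SE 0.16, adjusted p = 0.076, edgeR; 0.018 with the replicate block). In both genes the TP-0903 libraries lay close together and the control P4 library was the highest.

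KARS, FARSA and WARS stayed near their controls. KARS had 168 and 160.4 CPM with TP-0903, against 193 and 167 CPM in control cells (log2 fold change -0.13, SE 0.12). FARSA had 61.4 and 59.3 CPM with TP-0903, against 64.4 and 63.7 CPM in control cells (log2 fold change -0.09, SE 0.10). WARS had 129.9 and 122 CPM with TP-0903, against 135 and 126 CPM in control cells (log2 fold change -0.05, SE 0.14). None of these 3 passed in any alternative that was run, which does not show that they were unchanged.

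With TP-0903, 5 mitochondrial genes had an adjusted p of 0.053 to 0.081 without the block, and the next, TARS2 (threonyl), was at -0.35 with 0.16 (edgeR; 0.045 with the replicate block). CARS2 had 45.6 and 43.7 CPM with TP-0903, against 35.1 and 31.6 CPM in control cells (log2 fold change 0.42, SE 0.11, adjusted p = 0.056, edgeR; 0.020 with the replicate block). NARS2 had 24.5 and 25.3 CPM with TP-0903, against 36.5 and 31.9 CPM in control cells (log2 fold change -0.46, SE 0.12, adjusted p = 0.053, edgeR; 0.022 with the replicate block). AARS2 had 11.2 and 9.40 CPM with TP-0903, against 16.4 and 14.1 CPM in control cells (log2 fold change -0.56, SE 0.17, adjusted p = 0.076, edgeR; 0.018 with the replicate block). SARS2 (seryl) had 28.7 and 34.0 CPM with TP-0903, against 42.4 and 44.9 CPM in control cells (log2 fold change -0.48, SE 0.15, adjusted p = 0.081, edgeR; 0.026 with the replicate block). In each of these 4 the libraries of the groups did not overlap. Both TP-0903 libraries lay below both control libraries for 30.9% of all tested genes and above them for 28.9%. WARS2 (tryptophanyl) was at 0.56 (SE 0.17, adjusted p = 0.080, edgeR, and 0.024 with the replicate block), the highest value of the mitochondrial set. It had 15.9 and 15.7 CPM with TP-0903, against 11.2 and 10.2 CPM in control cells, also without overlap. RARS2 had 24.0 and 23.8 CPM with TP-0903, against 25.2 and 21.6 CPM in control cells, values that overlapped.

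**Figure D5:**
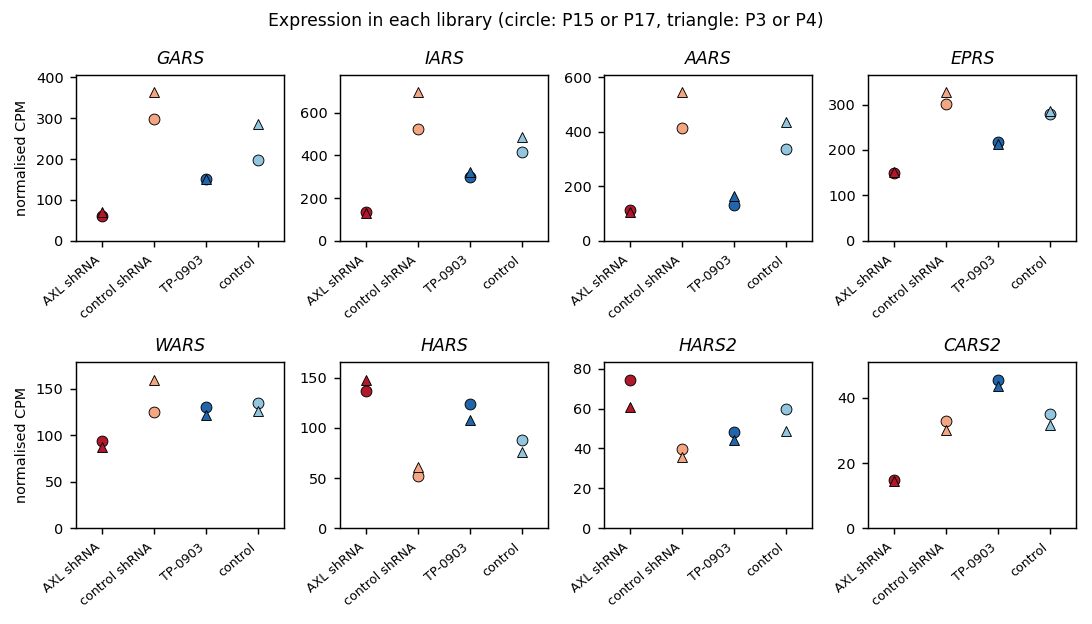
Normalised CPM of 8 synthetases in every library, by group, with P15 and P17 libraries as circles and P3 and P4 libraries as triangles; all axes start at 0. GARS, IARS, AARS, EPRS and WARS are lowest with AXL shRNA, HARS and HARS2 highest, and CARS2 is low with AXL shRNA (14.7 and 14.5 CPM) and high with TP-0903 (45.6 and 43.7 CPM).

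The genes called in both comparisons were 3, which is 3 of the 21 called with AXL shRNA in either direction (37.5% of all tested genes were) and 3 of the 3 called with TP-0903 (11.3% of all tested genes). With the replicate block they were 12, of 27 with AXL shRNA (51.7% of all tested genes) and 15 with TP-0903 (26.3% of all tested genes). The 2 comparisons share no library, but both come from 1 fit that shares the spread, so their calls are not independent. The share of all tested genes called in both was not computed, so these counts cannot be set against it. The difference between the effects, TP-0903 effect minus AXL shRNA effect, passed for 10 cytosolic genes, 7 with a positive difference and 3 with a negative one, and for 3 mitochondrial genes, where 20.6% of all tested genes passed (9.82% positive and 10.8% negative). The difference passed, with the replicate block, for 14 cytosolic genes, 11 positive and 3 negative, and for 4 mitochondrial genes, where 36.9% of all tested genes passed (18.6% positive and 18.4% negative). The genes added there were AARS, CARS (adjusted p = 0.031), MARS (0.024) and WARS (0.027) with positive differences and RARS2 (0.026) with a negative one, all in edgeR. The smallest p values were those of CARS2, with -1.11 for AXL shRNA and 0.42 for TP-0903, of IARS, with a difference of 1.66 (SE 0.23), and of GARS, with a difference of 1.66 (SE 0.27). The 3 genes that rose with AXL shRNA against the trend, HARS, FARSA and KARS, had negative differences. Their AXL shRNA effect is subtracted in the difference, so its sign is not separate support for their rise. AARS, at 0.74 (SE 0.28, adjusted p = 0.098, edgeR, and 0.017 with the replicate block), did not pass in the main fit. It passed in 3 of 16 alternatives: the replicate block, the P number in 2 levels and no filter on low counts. The cytosolic count, 10 without a block, fell to 3 without control P17, to 4 without AXL shRNA P3, TP-0903 P17 or TP-0903 P4, and to 6 without AXL shRNA P15. The mitochondrial count fell to 1 without TP-0903 P4 or control P17.

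The control hairpin libraries were set against the plain control libraries as a description, since the groups differ in P number as well as in the hairpin. Of the cytosolic genes 3 were lower with control shRNA, RARS, VARS and FARSA, and 0 higher, where 6.09% of all tested genes were lower and 3.06% higher. The cytosolic median log2 difference was 0.11 and the mitochondrial one -0.20, with 0 mitochondrial genes passing in edgeR (0 above and 6 below with unadjusted p below 0.05) and 0 with limma on log2 TPM. In edgeR 5 cytosolic genes were above and 5 below with unadjusted p below 0.05. Of all 17676 tested genes 2320 were above and 2555 below by that measure. Set against the plain control libraries, AXL shRNA libraries had 12 lower and 1 higher cytosolic genes and 7 lower mitochondrial genes, where 19.5% of all tested genes were lower and 17.3% higher. CARS, MARS and SARS then no longer passed as lower, at log2 differences of -0.55, -0.60 and -0.14. FARSA, KARS, HARS2 and RARS2 no longer passed as higher, at 0.25, 0.00, 0.31 and 0.33. HARS still passed, at 0.79 (SE 0.14). Control shRNA libraries themselves were at -0.41 for FARSA, -0.48 for KARS, -0.54 for HARS, -0.53 for HARS2 and -0.29 for RARS2 against plain control libraries. They were at 0.81 for MARS, 0.63 for CARS, 0.45 for GARS, 0.44 for IARS and 0.36 for SARS, genes that fell with AXL shRNA. Among the genes in these 2 lists only FARSA passed.

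The P number also moved with mitochondrial synthetases. The library with the lower P number had the lower CPM in all 4 groups for 8 of 16 mitochondrial genes (AARS2, CARS2, EARS2, FARS2, HARS2, LARS2, TARS2 and WARS2) and for 0 of 20 cytosolic genes, where this held for 13.7% of all tested genes. The lower P number had the higher CPM in all 4 groups for 4 cytosolic genes (CARS, DARS, FARSB and MARS) and 3 mitochondrial genes (MARS2, VARS2 and YARS2), where this held for 13.2%. For FARSB the values were 36.1 (P15) and 46.2 (P3) CPM with AXL shRNA, against 49.4 (P15) and 85.9 (P3) CPM with control shRNA. FARSB passed with the P number in the fit and not without it.

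Genes that work beside the synthetases included calls in both directions, where 37.5% of all tested genes were called with AXL shRNA and 11.3% with TP-0903. Of the 3 scaffold proteins of the multisynthetase complex, AIMP1 fell with AXL shRNA (log2 fold change -0.49, SE 0.11, adjusted p = 0.015, edgeR) and EEF1E1 fell with TP-0903 (-0.51, SE 0.11, adjusted p = 0.028, edgeR), and AIMP2 passed in neither. Of the 4 genes that complete mitochondrial charging, GATB, a subunit of the amidotransferase that makes glutaminyl-tRNA there, fell by 0.94 with AXL shRNA, and MTFMT, which formylates the initiator methionyl-tRNA, rose by 0.53. Of 6 genes for editing and related steps, DTD1, a D-aminoacyl-tRNA deacylase, fell by 1.05, and TARSL2, a threonyl-tRNA synthetase outside the 36, rose by 0.79. SEPSECS, which makes selenocysteinyl-tRNA, fell by 1.56 and its partner PSTK did not pass. Of 10 genes that deliver charged tRNA or move the ribosome, EEF1A1 fell by 0.55 and TUFM, the mitochondrial elongation factor Tu, rose by 0.44 with AXL shRNA, and GFM2 rose by 0.62 with TP-0903. In the fit with the replicate block 4 of the 6 editing genes fell and 1 rose with AXL shRNA. GATC, another amidotransferase subunit, passed as higher there in both comparisons. Of the 10 delivery genes, 2, EEF1A1 and EEF1B2, fell and 1 rose there with TP-0903. That fit called 51.7% of all tested genes with AXL shRNA and 26.3% with TP-0903.

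In a list of 28 genes of uncharged-tRNA sensing and the stress response, 14 fell and 1 rose with AXL shRNA (median log2 fold change -0.64), where 19% of all tested genes fell and 18.5% rose. With TP-0903 4 fell and 0 rose (median -0.32), where 6.35% of all tested genes fell and 4.9% rose. With the replicate block 19 fell and 2 rose with AXL shRNA (26.1% and 25.6% of all tested genes), and 13 fell and 1 rose with TP-0903 (13.4% and 12.9%). PHGDH, an enzyme of serine synthesis, ASNS, asparagine synthetase, and PSAT1, which acts beside PHGDH, had the smallest p values with AXL shRNA. PHGDH fell by 3.74 with AXL shRNA and by 2.85 with TP-0903 on the log2 scale, ASNS by 3.0 and 2.07, and PSAT1 by 2.04 and 1.03.

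ATF4 fell by 0.66 with AXL shRNA (SE 0.16, adjusted p = 0.018, edgeR) and by 0.90 with TP-0903 (SE 0.16, adjusted p = 0.015, edgeR). Its call with AXL shRNA was lost without AXL shRNA P15, AXL shRNA P3 or control shRNA P3 (adjusted p = 0.065 to 0.083, edgeR), and that with TP-0903 without TP-0903 P17, TP-0903 P4 or control P4 (adjusted p = 0.058 to 0.13, edgeR). For control shRNA against plain control libraries the log2 difference was above 0 for 22 of the 28 genes, as for 9123 of all 17676 tested genes. Its median over the 28 was 0.68 (0.43 for ATF4). Of the 28, 4 were called higher and 0 lower, where 3.06% of all tested genes were higher and 6.09% lower. Against the plain control libraries AXL shRNA libraries had 11 of the 28 lower and 4 higher, with a median of -0.42, and ATF4, at -0.22 (SE 0.16, adjusted p = 0.32, edgeR), did not pass. EIF2AK4 was at -0.14 (SE 0.13) with AXL shRNA and at 0.49 (SE 0.13, adjusted p = 0.052, edgeR) with TP-0903, where it passed as higher with the replicate block (adjusted p = 0.010, edgeR).

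Of the 36 genes, 11 have annotated pseudogenes named after them, and the highest of these pseudogenes reached 0.031 CPM in any library. In gene span, introns included, 11 of the 36 overlap a protein-coding neighbour that averaged at least 1 CPM. The largest such overlap is that of YARS2 with DNM1L, by 18161 bases or 63.9% of YARS2, and DNM1L averaged 155 CPM, which is 460% of the YARS2 mean. VARS2 overlaps GTF2H4 by 5865 bases, YARS overlaps S100PBP by 1387, MARS overlaps DDIT3 by 982, CARS2 overlaps ING1 by 868 and KARS overlaps TERF2IP by 858, and the other such overlaps are shorter. Their values hold that uncertainty.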

How the data were processed

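RNA was measured in 8 A549 libraries made with Nextera XT per the labels' protocols, for which no strand is stated. Reads were aligned to GRCh38 with STAR (2.5.3a) and quantified with RSEM, per the submitters' processing notes, which name no annotation. Expected counts, RSEM's estimates of the reads from each gene, were deposited without normalization. The authors' RSEM run also gave the TPM, already scaled for length and depth, which served here for levels between genes. Deposited effective lengths served only as offsets in an alternative.

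Expected counts were rounded, filtered with filterByExpr and scaled by the trimmed mean of M values. All 8 libraries entered 1 quasi-likelihood fit in edgeR (4.0.16) with a term per group, which shares the spread (biological coefficient of variation 21.5%, prior degrees of freedom 3.33). Tests were two-sided, adjusted by Benjamini-Hochberg over 17676 genes, with a threshold of 0.05. The SE is the log2 fold change divided by the square root of F. The fit was tried on simulated counts of independent libraries, with a smaller spread than here and no effect of the P number. That run checks the steps of the fit and not how well it suits these libraries. Members, gene lists and motifs were chosen with earlier results of these data known. Values in every library are given for GARS, KARS, EPRS, WARS, HARS and HARS2, for the 5 cytosolic and 3 mitochondrial genes with the smallest p in each comparison, for genes that passed against their set's median, and for the 3 smallest p of the difference. From each list of genes beside the synthetases up to 3 with the smallest p are named, with ATF4 and EIF2AK4.

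Deviations from the group means correlated at 0.444 between hairpin libraries of the same P number and at 0.450 between TP-0903 and control libraries that share a number, and at 0.171 to 0.309 between libraries of unlike numbers that both have the higher, or both the lower, number of their group. With 2 libraries a group their deviations mirror each other, so a pair of a higher with a lower number has the same correlation with a negative sign. The main fit holds no term for the number and so does not pair the libraries. The replicate block pairs them by number, and results with it stand beside those without it where a call changes. Alternatives used R (4.3.3), DESeq2 (1.42.0) and limma (3.58.1, with a pseudocount of 1 for log2 TPM). Gene positions are those of GENCODE 29, matched by Ensembl ID for all 36 genes.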

Additional observations from a re-analysis of the deposited data

Results flagged for a closer look

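The TP-0903 effect and the AXL shRNA effect differed for 13 of the 36 synthetases in the test of the difference itself (edgeR, adjusted p under 0.05, TP-0903 effect minus AXL shRNA effect on the log2 scale). The difference was positive for 9 of them: GARS at 1.66, IARS at 1.66, CARS2 at 1.53, PARS2 at 1.38, YARS at 0.99, SARS at 0.91, LARS at 0.78, EPRS at 0.67 and QARS at 0.56. It was negative for 4: HARS2 at -1.08, HARS at -0.84, FARSA at -0.75 and KARS at -0.61. The same test passed for 20.6% of all tested genes, 9.82% with a positive difference and 10.8% with a negative one. GARS, IARS and CARS2 passed in each of the 16 other settings that were run, and the other 10 missed the threshold in at least 1. CARS2 is the gene among these 3 whose values lie on opposite sides of its controls, with both AXL shRNA libraries below both control shRNA libraries and both TP-0903 libraries above both control libraries. SARS and PARS2, also flagged, had the same pattern, and HARS2 and FARSA had it the other way round. Of all tested genes 35.5% lay below with AXL shRNA and 28.9% above with TP-0903. The share with both at once was not computed.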

How the results depend on the processing

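Of the 21 synthetases called with AXL shRNA, 17 passed in every fit with a library left out and 15 also under every other scaling, filter, tool, length offset, block and subset of libraries, and no call changed sign. Plain control libraries in place of control shRNA libraries, a comparison chosen after the data were seen, ended 7 of the 21 calls. The mitochondrial count with AXL shRNA was 5 in the fit without a block, 9 with the replicate block and 9 with the P number in 2 levels. The cytosolic count with TP-0903, 3 without a block, was 7 with no filter on low counts, 9 with the replicate block, 8 with the P number in 2 levels, 8 in DESeq2, 1 in a fit of the 4 libraries alone, and 0 to 3 with a library left out. The mitochondrial count with TP-0903, 0 in edgeR, was 6 with the replicate block, 4 with the P number in 2 levels, 3 in DESeq2 and 1 in limma-voom. Of all tested genes, 11.3% were called with TP-0903 without a block and 26.3% with the replicate block. With AXL shRNA these shares were 37.5% and 51.7%. Shares for the other settings are not given here, so a change in count is not a result about the synthetases alone. With a library left out, the count for the difference of effects ran from 3 to 9 in the cytosolic set (10 with all libraries) and from 1 to 3 in the mitochondrial set (3 with all libraries). The cause of these moves was not tested. Among genes that did not pass, log2 fold changes near 0 changed sign with a library left out: AARS2 with AXL shRNA (-0.14 to 0.022), WARS with TP-0903 (-0.093 to 0.016) and RARS2 with TP-0903 (-0.056 to 0.16). EIF2AK4 with AXL shRNA also did, at 0.0094 without AXL shRNA P15 (-0.32 without AXL shRNA P3), and was at 0.025 with effective lengths as offsets. The count for the 28 genes of uncharged-tRNA sensing and the stress response with TP-0903, 4 without a block, was 14 with the replicate block, 14 with no filter on low counts, 10 in DESeq2, and 1, 2 and 8 without TP-0903 P17, TP-0903 P4 and control P17. With 2 libraries a group, changes the size of those seen with TP-0903 stood near the threshold.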
